A study of Mus musculus with 4 samples.

Results

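E2F1 is a transcription factor that binds near gene starts and is held in check by RB and its relatives. The peaks described here are the E2F1 chromatin immunoprecipitation sequencing (ChIP-seq) peaks at the promoters of genes for ribosomal proteins and translation factors in mouse embryonic stem cells (ESCs). A peak was taken when it overlapped the stretch from 1000 bp upstream to 500 bp downstream of any transcript start of a protein-coding gene (GENCODE M1 on mm9) whose symbol begins with Rpl or Rps and a digit (S6 kinase genes left out), with Eif and a digit, or with Eef1 or Eef2. This gave 59 peaks at 59 genes, 1 peak per gene, out of 3989 promoter peaks and 4523 peaks in all. The remaining 3930 promoter peaks are the group against which these 59 were compared. The rule for the 59 used position and gene name but no signal value, and it was chosen with earlier results of these data known.

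The ESCs were adapted for more than 20 days either to serum or to 2i medium, which holds the MEK inhibitor PD0325901 and the GSK3 inhibitor CHIR99021. Each condition had 2 biological replicates, all immunoprecipitated with an antibody to E2F1. No knockout, input or control antibody library was used here, so the values are E2F1 signal without a measured background. The series text does not say whether the replicates came from separate lines or clones, and p-values measure the spread between these 4 samples.

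Ribosomal proteins build the small and large subunits of the ribosome, and their messages are among the most abundant in growing cells. Many of these messages begin with a cytosine followed by a run of pyrimidines, the terminal oligopyrimidine (TOP) tract, through which mTOR signaling controls how well they are translated. Initiation factors (eIFs) bring the small subunit and the initiator tRNA to the start codon, and elongation factors (eEFs) carry the ribosome along the message. The rule also took in the argonaute genes, which bind small RNAs and carried the symbol Eif2c in this annotation, and a few paralogs.

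Of the 201 genes that met the rule, 59 had an E2F1 peak (29.4%, 95% exact binomial interval 23.2 to 36.2%). None of the 53 genes with a "-ps" symbol, the mark of a pseudogene, had one, and without them the share was 59 of 148 (39.9%, interval 31.9 to 48.2%). Among all other protein-coding genes 4181 of 22179 had a peak in the same window (18.9%). No "-ps" symbols were removed from that group, so the share counted alike is 29.4%. Neither group was limited to genes expressed in these cells. Genes without a peak are those with no peak shared by the replicates of a condition, and this does not show that E2F1 is absent there.

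Peaks lay at 31 of 72 ribosomal protein genes (43.1%), with 16 of 30 genes of the small subunit (53.3%) and 15 of 42 of the large subunit (35.7%). The intervals of the subunit shares overlapped (34.3 to 71.7% and 21.6 to 52.0%). Of the initiation and elongation factor genes, 23 of 63 had a peak (36.5%). They were spread unevenly over the factors. A peak was present at 10 of 16 genes of the eIF4 group, which was taken by symbol. This group holds factors that recognize and unwind the capped message, and also the eIF4E inhibitor Eif4ebp2. A peak was also present at 4 of 5 genes with an Eif1 symbol, among them factors of start codon selection. None of the 6 genes counted under eIF2, among them those of the subunits that carry the initiator tRNA, had a peak, nor did any of the 4 eIF2 kinase genes. The exchange factor eIF2B had a peak at 1 of 5 genes (Eif2b5), the scaffold complex eIF3 at 4 of 13, eEF1 at 1 of 6 (Eef1a1) and eEF2 with its kinase at 0 of 3 gene entries. The argonaute genes had a peak at 3 of 4. With so few genes per factor these shares are loose, and for the 6 eIF2 genes the exact upper limit was 45.9%.

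The sequences printed here are from the starts of some of the genes and from peaks with a known binding word. The first set shows annotated starts that have the form of a TOP tract in genes whose peaks are described further on, with 10 bases before the start and the unbroken run of pyrimidines in capitals. All are read 5′ to 3′ on the strand of the gene in the mm9 assembly.

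Rps3 (chr7:106632142-106632171, minus strand): cgagccacttCCTTTCCTTTCagcggcgcg
Rps24 (chr14:25309930-25309959, plus strand): gtgagcggtcCTCTTTTCCTCCTCTCCagc
Rps10 (chr17:27772170-27772199, minus strand): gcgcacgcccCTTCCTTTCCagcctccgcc
Rps19 (chr7:25669642-25669671, plus strand): ccccgtcgttCCCTTTCCCCTggctggcag
Rpl32 (chr6:115758746-115758775, minus strand): gccgccgcctCTTCCTTCTTCCTCggcgct
Rpl14 (chr9:120480622-120480651, plus strand): cgggccctctCTCTTCTCgctgagcgccgc

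A start was counted as pyrimidine-rich when it was a C followed by at least 4 pyrimidines. In ribosomal protein genes with a peak, 17 of 128 distinct annotated starts had this form (13.3%), in 13 of the 31 genes. In ribosomal protein genes without a peak the count was 15 of 193 (7.77%), in 12 of the 41 genes. Initiation and elongation factor genes had 15 of 290 (5.17%), and all other protein-coding genes had 1436 of 69365 (2.07%). The annotation lists several starts within a few bases for 1 gene, so these are counts of entries and not of messages.

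The other set shows the only member peaks with an 8-letter E2F word in the 401 bp around their centre. The word is in capitals, and each line is read on the strand that holds it.

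Eif4a1 (chr11:69485163-69485192, minus strand): ggcgggtccatTTTGCCGCacaagccgggc
Rps20 (chr4:3762442-3762471, minus strand): cgctgtttgttTTTCCCGCctgggtgataa

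Words were searched on both strands in the 401 bp around each peak centre. The E2F words TTTCCCGC, TTTCGCGC, TTTGCCGC and TTTGGCGC were found in 2 of 59 member peaks (3.39%) and in 5.01% of the other promoter peaks. The word lay 54 bp downstream of the nearest start in Eif4a1 and 178 bp downstream in Rps20. Along mm9 its offset from the peak centre was -168 bp in Eif4a1 and -166 bp in Rps20, toward the edge of the window. Without their first T, the same words, which include the longer ones, were in 20 member peaks (33.9%) and in 29.6% of the others. The E-box CACGTG, a word bound by MYC and related factors, was in 11 member peaks (18.6%) against 9.82%, and the GC box GGGCGG was in 52 (88.1%) against 94.0%. These are descriptions of letters in a window, and no test was run on them. Member peaks were less rich in G and C than the others, with medians of 70.8% and 75.6%.

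Member peaks sat just inside their genes. The median distance from the nearest protein-coding start to the peak centre was 90 bp downstream, against 54 bp for the other promoter peaks. Centres lay downstream of the start in 46 of 59 member peaks (78.0%) and in 68.3% of the others. For ribosomal protein genes it was 28 of 31 (90.3%). By the annotation, 24 centres fell in an intron of the gene, 13 in an untranslated part of an exon, 9 in a coding exon, 5 in an exon of a non-coding transcript and 8 outside the gene. Median peak length was 490 bp against 486 bp. At 7 of the 59 peaks (11.9%) the window of a gene outside the rule was met too (9.49% of the other promoter peaks met more than 1 gene). These were the peaks of Eif1ad with Banf1, Eif1a with Tmed7, Rpl18 with Sphk2, Rpl12 with Lrsam1, Rpl7 with Rdh10, Rpl7a with Med22 and Rpl36al with Mgat2.

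**Figure D1:**
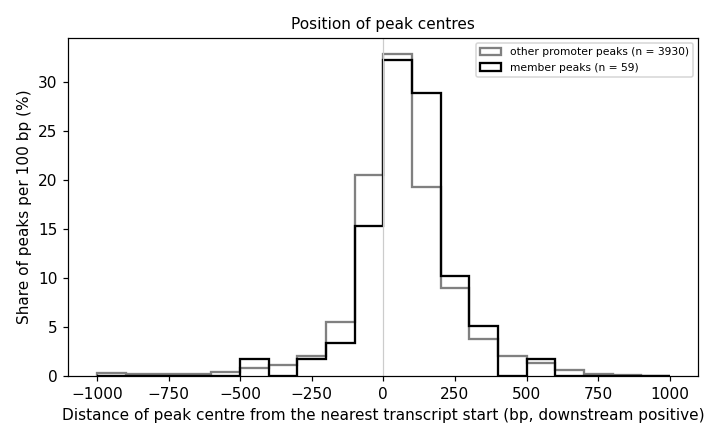
Distance in bp from the nearest protein-coding transcript start to the centre of each peak, for the 59 member peaks and for the other promoter peaks. Member centres have a median of 90 bp downstream of the start, and 46 of the 59 lie downstream.

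The values are normalised read counts per peak. Their steps show what 1 read was worth, which was 1.74 and 0.953 in the serum samples and 0.560 and 1.04 in the 2i samples. Serum replicate 1 was therefore the shallowest library. By these steps, 248878 to 710519 reads lay in all peaks per sample, and the median member peak held 50 and 85 reads in serum and 114 and 68 in 2i. Intervals and limits from such numbers cover counting error only. The weakest member value was 7 reads (Eif3f in serum replicate 1).

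The median member peak had a mean normalised read count of 85.2 over the 4 samples, 1.31 times the 65.1 of the other promoter peaks. Members ranged from 20.9 at Rps3 to 596 at Eif5. Over the 31 ribosomal protein peaks the median was 67.9, near that of the other promoter peaks. Over the 23 initiation and elongation factor peaks it was 86.6. The median of the other promoter peaks was passed by 16 of 31 and 16 of 23. Of the 59, 18 (30.5%) lay above the upper quartile of the other promoter peaks and 10 (16.9%) above their 90th percentile, and 15 lay below their lower quartile. The difference between all members and the other promoter peaks was seen mostly in serum. The members' medians were 87.1 and 81.0 in serum replicates 1 and 2, where the others had 62.7 and 63.9, and 63.8 and 70.9 in 2i replicates 1 and 2, where the others had 66.1 and 63.6. In 2i replicate 1 the member median was thus below that of the other promoter peaks. Without serum replicate 1 the ratio of medians was 1.13, and per kb of peak length it was 1.12.

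Eif5, whose product makes eIF2 hydrolyze its GTP at the start codon, had the strongest peak. Its values were 789 and 650 in serum and 422 and 524 in 2i, so both serum samples were above both 2i samples. The log2 fold change, serum minus 2i, was 0.61 ± 0.29 (SE; adjusted p = 0.292 by limma with Benjamini-Hochberg over all peaks). After cyclic loess scaling, which evens out changes that go with level, it was 0.20.

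Rpl32, a large subunit protein whose TOP start is shown above, had the strongest ribosomal protein peak, with 321 and 473 in serum and 506 and 368 in 2i. The samples of the conditions overlapped. Rps20, a small subunit protein, had 331 and 330 in serum and 303 and 379 in 2i, again with overlap. Eif4g1, the scaffold of the cap-binding complex, had 246 and 377 in serum and 336 and 288 in 2i. These 3 peaks had fitted log2 fold changes of -0.15, -0.04 and -0.03, which were -0.46, -0.29 and -0.27 after cyclic loess. Without serum replicate 1 Rpl32 and Eif4g1 were at 0.13 and 0.28, and without 2i replicate 2 Rps20 was at 0.13, so the sign at all 3 rested on single samples.

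Further strong peaks lay at Rps19, the small subunit protein whose gene is mutated in many patients with Diamond-Blackfan anemia, and at Eef1a1, the factor that brings aminoacyl-tRNA to the ribosome. Rps19 had 361 and 334 in serum and 260 and 289 in 2i. Eef1a1 had 298 and 310 in serum and 218 and 244 in 2i. At both genes the serum samples were the higher pair, by log2 fold changes of 0.34 ± 0.25 and 0.39 ± 0.24 (SE), which did not pass the test (adjusted p = 0.510 and 0.422, limma with Benjamini-Hochberg). After cyclic loess they were 0.10 and 0.19. Rpl14, a large subunit protein, had 279 and 240.2 in serum and 268 and 245 in 2i, and its samples overlapped. Eif2c2 (Ago2, the slicing argonaute) had 92.3 and 117 in serum and 95.2 and 126 in 2i, with the pairs interleaved.

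Comparing serum with 2i asks where E2F1 occupancy differed between the culture conditions. Most member peaks had a log2 fold change above 0, that is, toward serum. The median of the 59 was 0.34, against -0.05 for the other promoter peaks and -0.03 for all peaks. It was above 0 in 39 members (66.1%), and in 47.8% of all peaks and 46.0% of the other promoter peaks. For the 4 ways to pair a serum with a 2i sample, the member median was 0.34, 0.17, 0.35 and 0.25, and the other promoter peaks stayed between -0.04 and -0.02. Without 2i replicate 1 the member median was 0.16, against -0.04 for the others, with 1 sample left in 2i and its spread taken from the serum samples. After cyclic loess it was 0.20, with 36 members above 0. Leaving out 1 sample turned the sign of 25 of the 59.

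**Figure D2:**
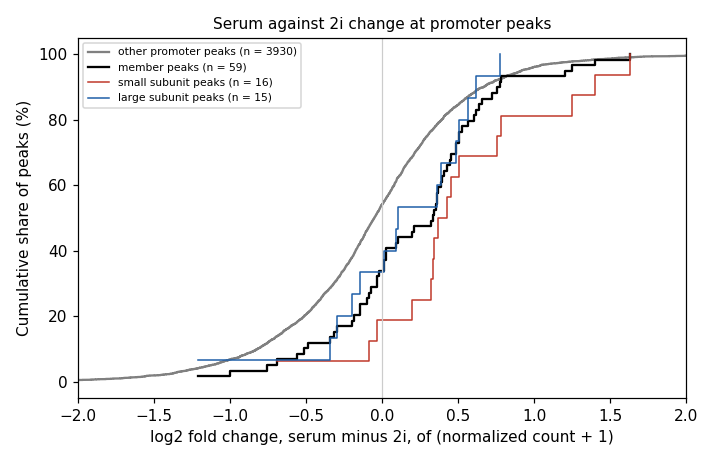
Cumulative share of peaks by log2 fold change, serum minus 2i, for member peaks, other promoter peaks and, as thin lines, the 16 small and 15 large subunit peaks among the members. The member curve lies to the right over the middle of the range, with medians of 0.34 and -0.05.

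Single peaks seldom passed the test. A peak was called at an absolute log2 fold change over 1 and an unadjusted p under 0.05, as limma fitted it over all 4523 peaks. This held for 6 of 59 members (10.2%), and for 10.3% of all peaks, so the share called was near the background. Of the 6, 4 rose in serum (background 4.82%) and 2 were higher in 2i (background 5.48%). With the Benjamini-Hochberg adjustment in limma no member passed 0.05 (background 1.46%), with 10 members at an unadjusted p under 0.05 (background 17.8%). Without 2i replicate 1 the call was lost at all 6 called members. Their log2 fold changes there were 1.28 (Rps3), 1.27 (Rps16), 0.76 (Rps24), 0.65 (Eif4a1), -0.98 (Rpl31) and -0.95 (Eif2b5). Without serum replicate 1, serum replicate 2 or 2i replicate 2 limma called 5, 7 and 8 members, and 9.33%, 14.9% and 9.13% of all peaks, the lone sample of a condition being assumed to vary like the pair in the other.

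The replicates of the conditions were apart in 31 members, against 49.3% of all peaks. In 25 members (42.4%) both serum values were above both 2i values, against 24.9% of all peaks. In 6 members (10.2%) both 2i values were above both serum values, against 24.4% of all peaks. In the other 28 the samples of the conditions overlapped.

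The ribosomal protein peaks had a median log2 fold change of 0.36, with 23 of 31 above 0. In the small subunit it was 0.40 with 13 of 16 above 0, and in the large subunit 0.10 with 10 of 15. Serum values lay apart from and above the 2i values at 10 of 16 small subunit (62.5%) and 5 of 15 large subunit peaks (33.3%), against 24.9% of all peaks. They lay apart and below at 1 of 16 and 2 of 15, against 24.4% of all peaks. The difference between the subunits was not tested.

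Rps3, a small subunit protein near the entry of the message channel, had the largest change and the lowest mean of the members. Its peak (chr7:106631948-106632257, centre in a coding exon) had 33.1 and 30.5 in serum and 7.28 and 12.5 in 2i, on 12 to 32 reads. The samples did not overlap, and the mean was 3.21-fold higher in serum, with a log2 fold change of 1.63 ± 0.51 (SE; adjusted p = 0.138, limma with Benjamini-Hochberg). Leaving out 1 sample at a time gave 1.28 to 1.99.

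Rps16, another small subunit protein, had a peak at chr7:29135693-29135971 with 45.3 and 25.7 in serum and 11.2 and 13.6 in 2i, on 13 to 27 reads. The samples were apart, with a log2 fold change of 1.40 ± 0.49 (SE; adjusted p = 0.175, limma with Benjamini-Hochberg). Near-identical copies elsewhere in the genome covered 37.6% of this peak.

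Rps24, likewise of the small subunit and with the longest pyrimidine run shown above, had a peak in an intron at chr14:25309935-25310249. Its values were 41.8 and 41.0 in serum and 11.8 and 24.0 in 2i, on 21 to 43 reads. Serum was higher in every pairing, and the log2 fold change was 1.25 ± 0.47 (SE; adjusted p = 0.201, limma with Benjamini-Hochberg). With a pseudocount of 8 in place of 1 it was 0.97, and the call was lost.

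Rps3, Rps16 and Rps24 were called without serum replicate 2 and without 2i replicate 2, and none of them was called without 2i replicate 1. There Rps3 and Rps16 kept log2 fold changes of 1.28 and 1.27 and missed on p alone, and Rps24 was at 0.76. Without serum replicate 1, Rps3 alone of the 3 was called, with Rps16 at 1.004 and Rps24 at 1.23. All 3 were among the weakest member peaks, with a mean normalised read count under 50.

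Other small subunit peaks were higher in serum by less. Rps3a had 279 and 213 in serum and 138 and 150.2 in 2i, a log2 fold change of 0.75 ± 0.25 (SE; adjusted p = 0.161, limma with Benjamini-Hochberg) that did not reach the size set for a call. Rps6, the target of the S6 kinases, had 192 and 158 in serum and 133 and 143 in 2i. Both serum values were above both 2i values, and the log2 fold change of 0.34 ± 0.25 (SE; adjusted p = 0.519, limma with Benjamini-Hochberg) did not pass the test.

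Rps10, also of the small subunit, had the lowest log2 fold change there, with 87.1 and 87.7 in serum and 187 and 107 in 2i. Both 2i samples were above both serum samples, and the log2 fold change was -0.69 ± 0.30 (SE; adjusted p = 0.265, limma with Benjamini-Hochberg), short of the size set for a call. It was -0.29 without 2i replicate 1 and -1.09, and called, without 2i replicate 2.

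In the large subunit the single call went toward 2i. Rpl31, a protein beside the exit of the peptide tunnel, had 47.0 and 62.0 in serum and 149 and 107 in 2i at chr1:39424620-39425087, in an intron. The 2i mean was 2.35-fold that of serum, with a log2 fold change of -1.21 ± 0.30 (SE; adjusted p = 0.0809, limma with Benjamini-Hochberg), the smallest adjusted p of the 59. Without 2i replicate 1 it was -0.98 and the call was lost. Copies elsewhere covered 52.8% of this peak, the most of any member.

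Rpl36al, a paralog of Rpl36a, shared its peak with the promoter of Mgat2 and had 95.8 and 61.0 in serum and 111 and 104 in 2i. The 2i samples were higher, by a log2 fold change of -0.49 ± 0.30 (SE), and this did not pass the test (adjusted p = 0.419, limma with Benjamini-Hochberg). Without serum replicate 1 it was -0.81 and without serum replicate 2 it was -0.17. Rpl22l1, a paralog of Rpl22, was a weak peak with 19.2 and 26.7 in serum and 12.9 and 29.2 in 2i, and its samples overlapped. Rpl13 had 87.1 and 84.8 in serum and 47.6 and 52.2 in 2i, with a log2 fold change of 0.78 ± 0.30 (SE; adjusted p = 0.211, limma with Benjamini-Hochberg), the highest in the large subunit but short of a call.

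**Figure D3:**
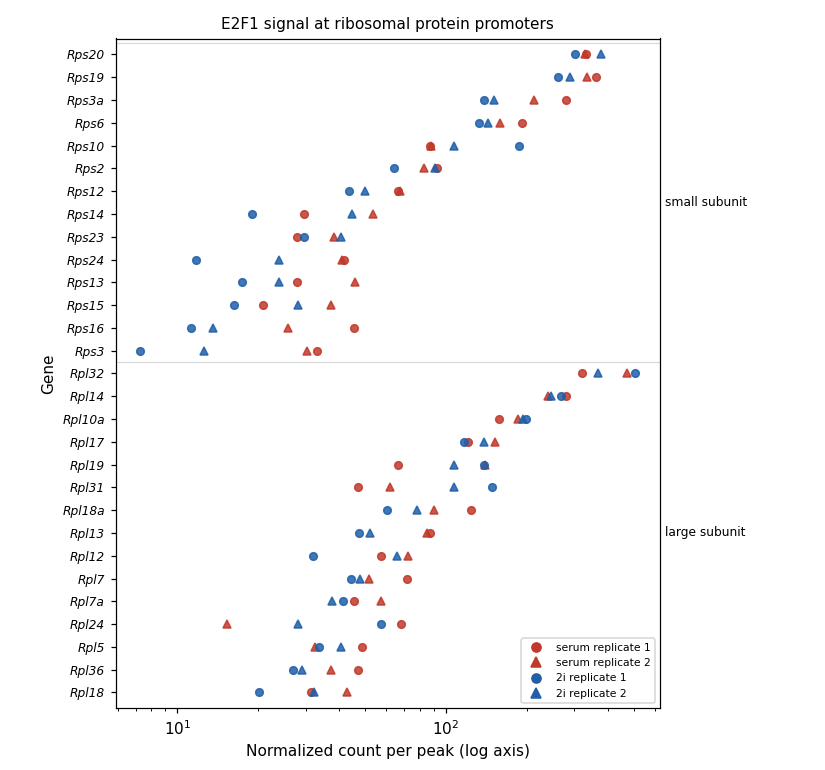
Normalised read count on a log axis in each of the 4 samples for ribosomal protein peaks (a few are not shown), ordered by mean within each subunit. Rps3, Rps16 and Rps24 show both serum points well above both 2i points, and Rpl31 shows the reverse.

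In total, 20 of 31 ribosomal protein peaks and 2 of the other 28 members held a stretch of at least 43 bases, the read length, with a copy of at least 95% identity elsewhere in mm9. Such copies covered over 25% of 8 peaks. Of the 6 called peaks, Rps3, Rps24, Eif4a1 and Eif2b5 had no such copy. The part of copies in the other results was not tested.

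The 23 peaks of initiation and elongation factors had a median log2 fold change of 0.03, with 14 above 0. The eIF1 peaks had a median of 0.51 with 4 of 4 above 0. Of these, Eif1a was at 0.03, with a range of -0.38 to 0.44 when 1 sample was left out. The median was 0.40 for Eif5, Eif5a and Eif5a2 (Eif6 had no peak), 0.02 for eIF4 and -0.37 for eIF3, with 1 of 4 above 0. The medians of these small groups rest on 3 to 10 peaks each.

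Eif4a1, the helicase that unwinds the start of the message, was the only factor peak called higher in serum. Its peak (chr11:69484974-69485719, centre in an intron), which holds an E2F word, had 108 and 83.9 in serum and 27.4 and 60.5 in 2i. The serum samples were the higher pair, and the log2 fold change was 1.20 ± 0.39 (SE; adjusted p = 0.152, limma with Benjamini-Hochberg). The 2i samples were further apart than the serum samples. The call was lost without 2i replicate 1 (0.65) and without serum replicate 1 (1.02).

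Eif2b5, the catalytic subunit of eIF2B, which recharges eIF2 with GTP, went the other way. At chr16:20498785-20499281, in a coding exon, it had 80.1 and 66.7 in serum and 153 and 142 in 2i. The replicates lay close together and the conditions were apart, with a 2.01-fold higher mean in 2i and a log2 fold change of -1.003 ± 0.26 (SE; adjusted p = 0.0919, limma with Benjamini-Hochberg). The value sits at the threshold of the call, which was lost at -0.94 with a pseudocount of 8, and also without serum replicate 2 or 2i replicate 1 (range -1.13 to -0.87).

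Among the other factors, Eif1b, a paralog of the start codon factor Eif1, had 97.6 and 124 in serum and 85.7 and 67.8 in 2i, and Eif3a, the largest eIF3 subunit, had 109.8 and 82.9 in serum and 71.1 and 77.2 in 2i. Serum was the higher pair at both, by log2 fold changes of 0.52 ± 0.28 and 0.36 ± 0.29 (SE) that did not pass the test (adjusted p = 0.361 and 0.554, limma with Benjamini-Hochberg). Eif3a was at 0.16 without serum replicate 1 and at 0.56 without serum replicate 2. Eif3b, the eIF3 subunit that anchors eIF3g and eIF3i, had 45.3 and 34.3 in serum and 86.8 and 52.2 in 2i. There the 2i samples were higher, with a log2 fold change of -0.76 ± 0.37 (SE; adjusted p = 0.311, limma with Benjamini-Hochberg), which was not called. It was -0.39 without 2i replicate 1 and -1.12, and called, without 2i replicate 2. Eif2c4 (Ago4), a weak argonaute peak, had 38.3 and 18.1 in serum and 17.4 and 24.0 in 2i, and its samples overlapped.

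In the eIF4 group 2 further peaks are given as examples, chosen after their values were seen. Eif4ebp2, an inhibitor of the cap-binding protein eIF4E that mTOR controls, had 88.9 and 76.3 in serum and 49.8 and 55.3 in 2i. Eif4h, which stimulates eIF4A, had 148 and 144 in serum and 140.5 and 147 in 2i. The log2 fold changes were 0.64 ± 0.30 and 0.02 ± 0.24 (SE), neither called, and that of Eif4h was below 0 after cyclic loess (-0.05).

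**Figure D4:**
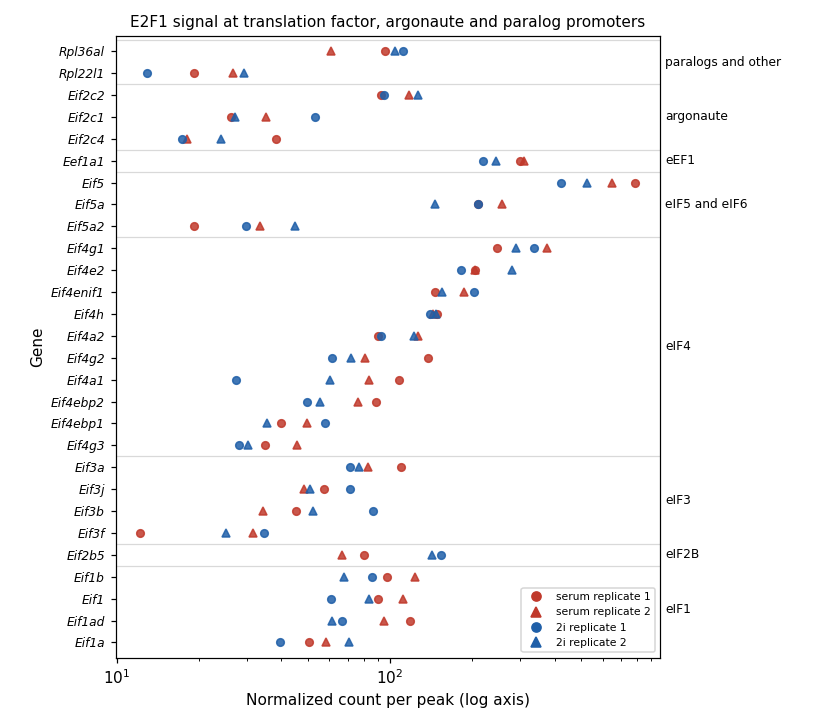
Normalised read count on a log axis in each of the 4 samples for the 28 peaks of initiation factors, elongation factors, argonautes and paralogs, grouped by factor and ordered by mean within each group. Eif4a1 shows both serum points above both 2i points, and Eif2b5 and Eif3b the reverse.

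Weak and strong promoter peaks differed in their change, so members were also set beside other promoter peaks of like level, in 4 classes split at the quartiles of the latter. In the lowest class (mean normalised read count under 38.2) the other promoter peaks had a median log2 fold change of -0.31, and the 15 members there had 0.43. In class 2 it was -0.07 against 0.07 for 10 members, and in class 3 it was -0.03 against 0.42 for 16 members. In the highest class (over 114) it was 0.10 against 0.06 for 18 members, so there the members did not have the higher median. By base composition, 37 members fell in the lowest of 4 like classes of G and C content, where the other promoter peaks had a median of -0.12 and the members 0.37. All 6 called members were in that class, and the part of level and base composition was not tested.

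**Figure D5:**
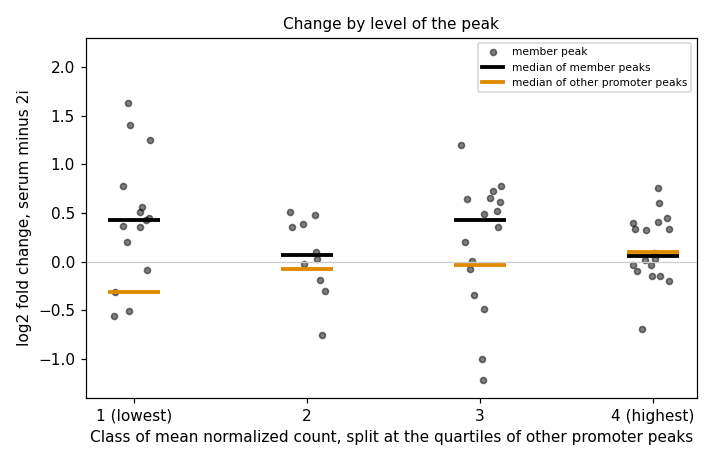
Log2 fold change, serum minus 2i, of each member peak by class of mean normalised read count (split at the quartiles of the other promoter peaks), with bars for the median of members and of other promoter peaks. The member median is above that of the others in class 1 (0.43 and -0.31) and class 3 (0.42 and -0.03), and not in class 4 (0.06 and 0.10).

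The members lay on 19 chromosomes, the most on chromosome 7, where the 8 members had a median log2 fold change of 0.58 and the other promoter peaks -0.01. Chromosomes 6, 11 and 16 had other promoter peaks with a lower median (-0.39, -0.27 and -0.26). Rpl32 was the single member on chromosome 6.

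Genes that work with the ribosome but fall outside the rule were read from 6 lists, which were chosen with earlier results of these data known. Of 78 such genes 24 had a promoter peak, giving 26 peaks with a median log2 fold change of 0.11, 15 of them above 0. Called higher in serum were 2 of the 26 (background 4.82%), and 0 were called higher in 2i (background 5.48%), with Rplp0 at an unadjusted p of 0.0284 there (limma). The called peaks were Tpt1, a classical TOP message, and Nop56, a core protein of the box C/D particles that modify ribosomal RNA.

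Tpt1 had 568 and 374 in serum and 181 and 186 in 2i, and Nop56 had 67.9 and 67.7 in serum and 30.8 and 21.9 in 2i. In both the serum samples lay clear of the 2i samples. The log2 fold changes were 1.32 ± 0.27 (SE; adjusted p = 0.0406) and 1.35 ± 0.37 (SE; adjusted p = 0.102) by limma with Benjamini-Hochberg, so Tpt1 alone of these 26 also passed after adjustment (background 1.46%). Both were called whichever sample was left out.

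Some ribosomal proteins carry symbols that the naming rule missed. Rpsa, of the small subunit, had 335 and 309 in serum and 300.1 and 248 in 2i. Rplp0, the base of the acidic stalk, had 83.6 and 82.0 in serum and 157 and 115 in 2i, the reverse direction. Neither was called, with log2 fold changes of 0.24 and -0.69. In the mTOR pathway list 3 of 11 genes had a peak (Rptor, Rictor and Rheb), with log2 fold changes from -0.20 to -0.03.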

How the data were processed

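E2F1 ChIP-seq was performed on 2 serum and 2 2i ESC samples. Per the study's methods, the authors aligned paired-end reads of 43 bases to mm9 with BWA, removed duplicates and blacklisted regions, called peaks per sample with macs2, intersected replicates, merged the conditions and counted reads with bedtools; versions are not given in the sources used here. The deposited signal is a normalised read count per merged peak, in whole multiples of 1 step per sample to within 0.1 reads, except 7 values of exactly 2 in serum replicate 1. Whether starts are 0- or 1-based is not stated. All 4 columns were used.

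Members were found from the GENCODE M1 annotation. The members and lists were chosen with earlier results of these data known. Serum minus 2i was fitted to log2(normalised count + 1) over all 4523 peaks with limma 3.58.1 (R 4.3.3; variance trend, no filter on low values), adjusted by Benjamini-Hochberg and tested on simulated data. A log2 fold change understates the change of weak peaks because of the pseudocount. Planned count tests were not run. Read numbers are from the steps, exact for low values, and cover counting error only. Sequences were read from NCBIM37, in which 4509 peaks could be placed. Copies were searched with blastn 2.17.0. Peaks given in full were the called members, the 4 strongest and 4 weakest, the 4 largest changes each way with conditions apart, and the strongest of each class. Others named (Rps19, Rps3a, Rps6, Rpl13, Rpl14, Eif4ebp2, Eif4h) were chosen after their values were seen. Alternatives covered pseudocount, low values, scaling, variance trend, replicates and promoter window. Some genes that entered the counts and medians are not reported here by name.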

Additional observations from a re-analysis of the deposited data

How the results depend on the processing

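The number of member peaks called, 6, was 3 when only peaks with a mean normalised count of at least 50 were fitted, since only 40 members entered that fit (6.88% of all peaks called there), and ranged from 0 to 8 when 1 sample was left out. The member median log2 fold change of 0.34 (other promoter peaks -0.05) was 0.25 after rescaling to the same total, where the others moved to -0.14. After cyclic loess it was 0.20 (others -0.05). The member median ranged from 0.16 to 0.36 over samples left out. The member median normalised count of 85.2 (other promoter peaks 65.1) was 109 over peaks of at least 50 (others 98.1) and 144 per kb (others 128). It ranged from 74.5 to 87.0 over samples left out. With a pseudocount of 8, 4 members were called, without Rps24 and Eif2b5, and 7.01% of all peaks were called. The 59 genes with a peak were 58 when the peak centre had to lie in the window and 40 at a mean of at least 50. Leaving out 1 sample turned the sign, among the 19 members given in full by rule, of Eif2c2 (-0.28 to 0.13), Eif2c4 (-0.16 to 0.88), Eif4g1 (-0.34 to 0.28), Rpl22l1 (-0.35 to 0.77), Rpl32 (-0.43 to 0.13) and Rps20 (-0.20 to 0.13). The cause was not tested. Replicate numbers did not pair the samples (correlation of deviations 0.048). With a replicate block limma called the same 6 members, and 3 members passed the Benjamini-Hochberg adjustment in place of 0, as did 6.88% of all peaks in place of 1.46%. The edgeR and DESeq2 alternatives were not run, so no count test stands beside limma. Depth limits the weakest members, down to 7 reads in a sample.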
